A study of Mus musculus with 8 samples.

Results

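Expression of 40 genes of cell division was measured in mouse pancreatic islets by gene expression array. They were chosen by name, as genes whose products carry a cell through its cycle or hold it back, out of 21154 genes with at least 1 probe of known symbol, and each was read on its brightest probe. By role they comprised 16 mitotic genes and proliferation markers, 10 genes of DNA replication, 8 G1 cyclins and kinases and 6 inhibitors of the cycle. Their 40 symbols matched 56 probes, and 12 of the genes had over 1 probe. Of the 40, 34 stood well above background in at least 3 mice and were compared between genotypes. The other 6 were not compared: Top2a and Cdk2 stood above background on 2 arrays each, and Bub1, Aurkb, Ccne2 and Cdk6 on none.

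Islets came from 7 male C57BL/6 mice on standard diet, 4 labelled CB1 WT and 3 labelled CB1 KO. The study's methods describe the knockouts as β-CB1R-/- mice, in which tamoxifen-activated MIP-Cre/ERT deleted the floxed Cnr1 gene (Cnr1 flox/flox:MIP-Cre/ERT+), and the controls as β-CB1R+/+ littermates with floxed Cnr1 and no Cre (Cnr1 flox/flox:MIP-Cre/ERT-), also injected with tamoxifen. The labels give no age for these mice, and they mention a global CB1 knockout line, whereas the series title names the beta cell line. On the methods' description, every knockout carried both the deletion and the transgene and no control carried either. The effects of the deletion and of the transgene then cannot be told apart here. This Cre line is known to hold a minigene for human growth hormone, a hormone that can act on lactogen receptors. Each mouse was read on 1 single-colour array, except β-CB1R-/- mouse 2, which was read on 2 arrays that were averaged. Nothing in the labels pools animals.

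Levels are given as log2 intensity after the 75th percentile of each array was set to 0, so that a difference of 1 is a doubling. All 8 arrays shared 1 slide and 1 scan, but each genotype took up a side of its own, so that position and genotype cannot be told apart. Between 33304 and 39988 of 55681 probes stood well above background on an array, and no spot was saturated. Cnr1, the targeted gene, was lower in every knockout, with −1.11, −0.77, −0.53 and −0.02 in β-CB1R+/+ mice 1 to 4 and −2.30, −3.13 and −2.28 in β-CB1R-/- mice 1 to 3 (log2 fold change −1.97 ± 0.33 SE, limma adjusted p = 0.193). Insulin, glucagon and somatostatin were present on every array (Ins1 10.41 to 11.23, Gcg 9.43 to 10.12, Sst 8.14 to 9.25), and so was RNA of exocrine acinar cells (Cela3b 10.27 to 11.43). Fos, an immediate early gene, was high in 3 mice of both genotypes, at 6.31 and 5.34 in β-CB1R+/+ mice 3 and 4 and 5.84 in β-CB1R-/- mouse 2, against −1.59 to 0.75 in the others.

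A dividing cell passes from G1, where D-type cyclins with Cdk4 and Cdk6 and then cyclin E with Cdk2 release E2F factors from the retinoblastoma protein, to S phase, where the MCM helicase opens DNA and Pcna clamps the polymerase, and on to mitosis, driven by cyclin B with Cdk1 and by Polo and Aurora kinases. Inhibitors of the Cip/Kip and Ink4 families oppose these kinases. Most adult beta cells are at rest, and beta cell replication in pregnancy is known to follow lactogen signalling through the prolactin receptor and Stat5, to which cyclin D2 and a fall of menin have been tied. The comparison asks whether genes of proliferation differed between the genotypes, beside a list of lactogen-responsive genes.

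The mitotic genes are known as a group that is transcribed together in G2, through paired promoter elements named the CCAAT box, which binds NF-Y, and the cell cycle genes homology region (CHR), which binds the DREAM and MuvB-Foxm1 complexes. The 200 bases before the start of the gene are shown for 3 genes whose level was lower in every β-CB1R-/- mouse (Plk1, Ccnb2 and Mki67), for the partners Cdk1 and Ccnb1, which were not, and for Top2a, which was not well above background in any knockout and held the most matches of these 6. Sequences are from RefSeq, build GRCm38.p6, written 5′ to 3′ on the strand of the gene, with each CCAAT box and each CHR match in capitals on either strand. The stretches are chr7:122159235-122159434 on the plus strand for Plk1, chr9:70421555-70421754 on the minus strand for Ccnb2, chr7:135716380-135716579 on the minus strand for Mki67, chr11:99024190-99024389 on the minus strand for Top2a, chr10:69352913-69353112 on the minus strand for Cdk1 and chr13:100786487-100786686 on the minus strand for Ccnb1.
Plk1: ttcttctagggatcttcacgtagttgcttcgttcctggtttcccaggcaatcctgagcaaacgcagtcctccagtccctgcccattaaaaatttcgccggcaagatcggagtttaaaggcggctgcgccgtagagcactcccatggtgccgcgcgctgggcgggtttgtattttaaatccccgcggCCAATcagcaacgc
Ccnb2: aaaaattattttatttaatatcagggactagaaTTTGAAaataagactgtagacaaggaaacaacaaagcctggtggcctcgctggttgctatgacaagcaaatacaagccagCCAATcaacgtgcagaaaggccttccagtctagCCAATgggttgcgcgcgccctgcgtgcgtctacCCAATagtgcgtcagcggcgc
Mki67: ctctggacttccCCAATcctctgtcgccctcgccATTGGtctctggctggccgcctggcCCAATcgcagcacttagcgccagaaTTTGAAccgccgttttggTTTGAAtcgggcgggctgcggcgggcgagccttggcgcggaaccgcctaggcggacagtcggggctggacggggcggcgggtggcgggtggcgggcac
Top2a: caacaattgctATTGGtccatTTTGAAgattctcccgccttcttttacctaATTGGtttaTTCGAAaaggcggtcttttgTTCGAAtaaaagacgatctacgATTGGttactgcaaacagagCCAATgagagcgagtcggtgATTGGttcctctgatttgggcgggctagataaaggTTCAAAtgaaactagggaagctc
Cdk1: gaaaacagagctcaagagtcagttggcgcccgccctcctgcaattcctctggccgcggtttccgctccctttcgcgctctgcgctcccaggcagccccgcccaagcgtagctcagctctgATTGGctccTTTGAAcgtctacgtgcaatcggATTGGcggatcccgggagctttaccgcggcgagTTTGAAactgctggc
Ccnb1: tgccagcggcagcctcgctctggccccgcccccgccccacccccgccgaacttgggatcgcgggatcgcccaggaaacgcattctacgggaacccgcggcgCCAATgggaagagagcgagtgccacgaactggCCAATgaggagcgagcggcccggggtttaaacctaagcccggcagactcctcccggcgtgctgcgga

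The CHR was searched as TTTGAA or TTCGAA, the CCAAT box as CCAAT, an E2F site as TTCCCGC or, in a second form, TTGGCGC, and the GAS element that binds Stat5 as TTCNNNGAA, each on both strands. RefSeq promoters were at hand for 32 of the 40 genes; Ccna2, Foxm1, Ccnd1, Aurkb, Mcm4, Ccne2, Ccnd2 and Cdkn1c had none. Of the 13 mitotic genes with a promoter, 12 (92.3%) held a CCAAT box and 7 (53.8%) a CHR in these 200 bases, against 32.7% and 15.4% of all 27025 genes with a promoter. Among replication genes 7 of 9 (77.8%) held a CCAAT box and 3 (33.3%) an E2F site, against 5.55% of all genes for the latter. E2F sites also stood before 3 of 13 mitotic genes (23.1%), 1 of 5 G1 cyclins and kinases (20%) and 2 of 5 inhibitors (40%). None of the 32 members with a promoter held the GAS letters, which stood before 6.38% of all genes. For 32 genes a count of 0 is near that share, and Ccnd1 and Ccnd2 could not be searched. Of the promoters shown, Top2a held 4 CHR and 5 CCAAT matches, Mki67 2 and 3, Ccnb2 1 and 3 and Cdk1 2 of each. Plk1 and Ccnb1 held CCAAT boxes and no match to the CHR letters searched, and other forms of the CHR were not searched. These are matches of letters in a short window and not measured binding.

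Across all 34 genes compared, none passed an adjusted p of 0.05 (limma, adjusted over all 39165 probes compared), where 0.171% of all 16954 genes did, all of those higher in β-CB1R-/- islets. At an unadjusted p under 0.05, 4 of the 34 were lower and 0 were higher, against 2.02% and 1.88% of all genes (3.9% in either direction). The count of 4 depended on the processing: it was 2 with the deposited Z scores and 5 with the mean of all probes of a gene. It also fell when some single mice were left out. In 6 of the 34 every β-CB1R-/- mouse lay below every β-CB1R+/+ mouse (2.22% of all genes), and in 0 every one lay above (2.61%). Taking direction alone, 25 of 34 (73.5%) had a log2 fold change below 0, as did 55.7% of all genes. The median log2 fold change was −0.15 over the 34 genes and −0.04 over all genes. No member was therefore called as different, and of the genes whose genotypes separated, all were lower in the knockout. In whole islets, fewer cells of a dividing type and less RNA per cell cannot be told apart.

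**Figure D1:**
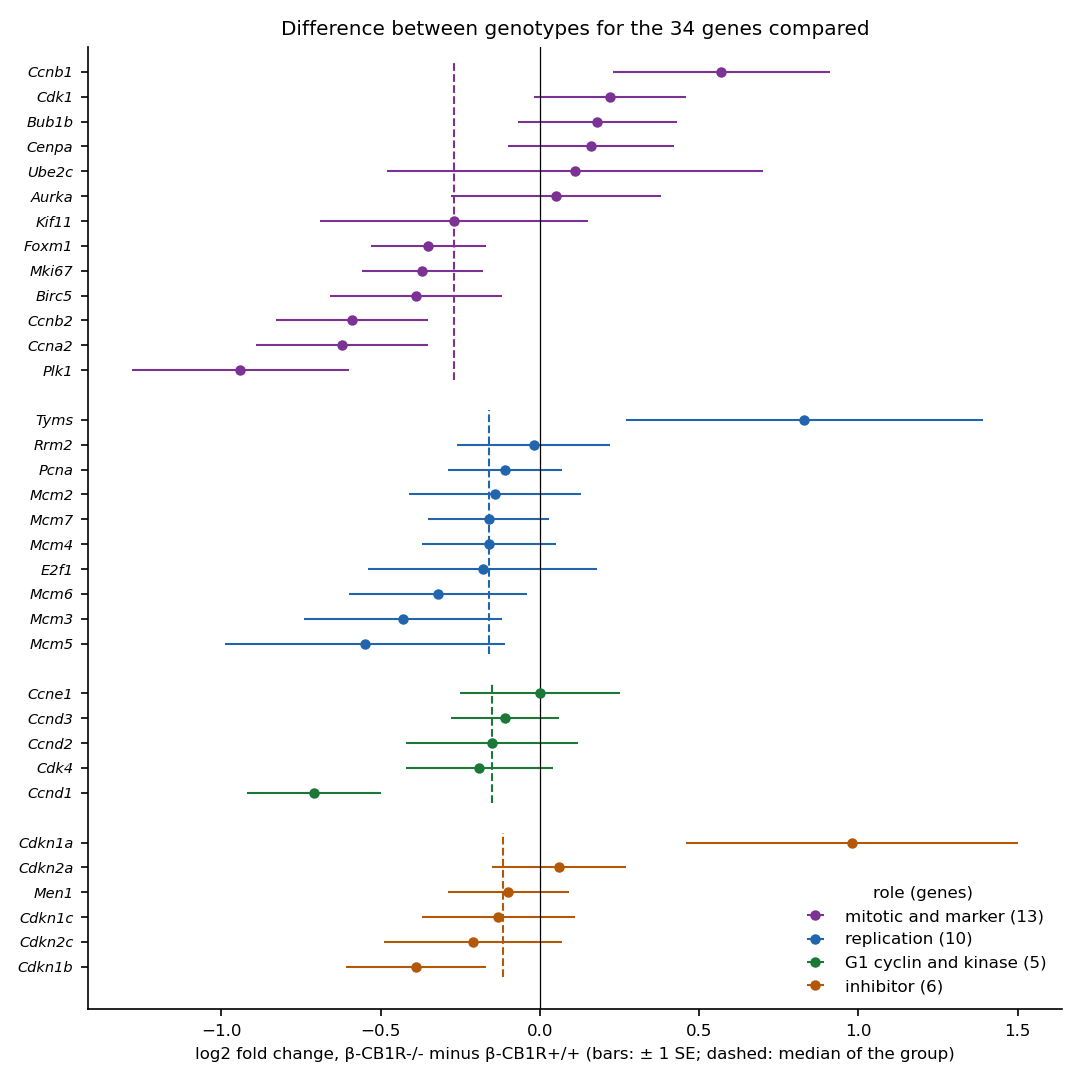
The log2 fold change, β-CB1R-/- minus β-CB1R+/+, is on the horizontal axis for each of the 34 genes compared, grouped by role, with bars of ± 1 SE from limma (4 and 3 mice) and a dashed line at each group's median. Plk1, Ccnd1, Ccna2 and Ccnb2 lie lowest, from −0.94 to −0.59, and Cdkn1a and Tyms highest, at 0.98 and 0.83.

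Among the 13 mitotic genes and markers compared, 7 were lower and 6 higher in β-CB1R-/- islets, and 5 of the 13 separated the genotypes downward (Mki67, Ccna2, Ccnb2, Foxm1 and Plk1), as did 2.22% of all genes. Mki67, whose product Ki-67 coats mitotic chromosomes and is the common marker of cycling cells, was at −0.47, −0.45, −0.48 and −0.24 in β-CB1R+/+ mice 1 to 4 and at −0.62, −1.04 and −0.68 in β-CB1R-/- mice 1 to 3. Every knockout was thus below every control, with mouse 2 the lowest, by a mean of −0.37 ± 0.19 SE (unadjusted p = 0.0887 by limma, exact two-sided permutation p = 0.0286, the smallest that 35 splits of 4 and 3 mice allow). The 95% interval of the Mki67 difference ran from −0.81 to 0.07, which leaves room for a level at most 1.05-fold higher in the knockout. On a second Mki67 probe the difference was −0.45 ± 0.26 SE and the genotypes overlapped.

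Ccna2, cyclin A2, which acts in S phase and at the entry into mitosis, was at −1.75, −1.33, −1.72 and −1.50 in β-CB1R+/+ mice 1 to 4 and at −2.04, −2.76 and −1.79 in β-CB1R-/- mice 1 to 3 (−0.62 ± 0.27 SE, unadjusted p = 0.0495 by limma). Ccnb2, one of the B cyclins of mitosis, was at −1.61, −1.26, −1.59 and −1.34 in the controls and at −1.90, −2.48 and −1.73 in the knockouts (−0.59 ± 0.24 SE, unadjusted p = 0.0388 by limma). These 2 cyclins put the 7 mice in one and the same order, from β-CB1R+/+ mouse 2 at the top through mice 4, 3 and 1 to β-CB1R-/- mice 3, 1 and 2. Foxm1, the transcription factor that activates the G2 and mitotic genes, was at −2.42, −2.46, −2.58 and −2.54 in the controls and at −2.83, −3.02 and −2.71 in the knockouts (−0.35 ± 0.18 SE, unadjusted p = 0.0805 by limma). Each of these genes was lowest in β-CB1R-/- mouse 2, and without that mouse the differences were −0.24 for Mki67, −0.34 for Ccna2, −0.36 for Ccnb2 and −0.27 for Foxm1. With normexp background correction, Ccna2, Ccnb2 and Foxm1 differed by −0.37, −0.33 and −0.11.

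Plk1, the Polo-like kinase that drives centrosome maturation and spindle assembly, had another pattern. It was at 0.22, −0.45, −1.07 and −1.09 in β-CB1R+/+ mice 1 to 4 and at −1.41, −1.59 and −1.60 in β-CB1R-/- mice 1 to 3, so that the controls spread over a wide range and the knockouts lay close together beneath it (−0.94 ± 0.34 SE, unadjusted p = 0.0231 by limma, exact permutation p = 0.0857). Without β-CB1R+/+ mouse 1 the difference was −0.67, and with normexp background correction −0.50. Top2a, the topoisomerase that untangles replicated chromosomes, was highest in the same control mouse, at −0.84, −2.36, −4.43 and −3.29 in the controls against −5.42, −5.20 and −5.72 in the knockouts. It was above background on 2 of 4 control arrays and on none of the knockout arrays. Taken from the mean of the 4 controls (−2.73), the bound is a level 2.12-fold lower in the knockouts, with no test. That mean includes control arrays not above background and is raised by β-CB1R+/+ mouse 1 at −0.84, so the bound leans on that mouse.

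**Figure D2:**
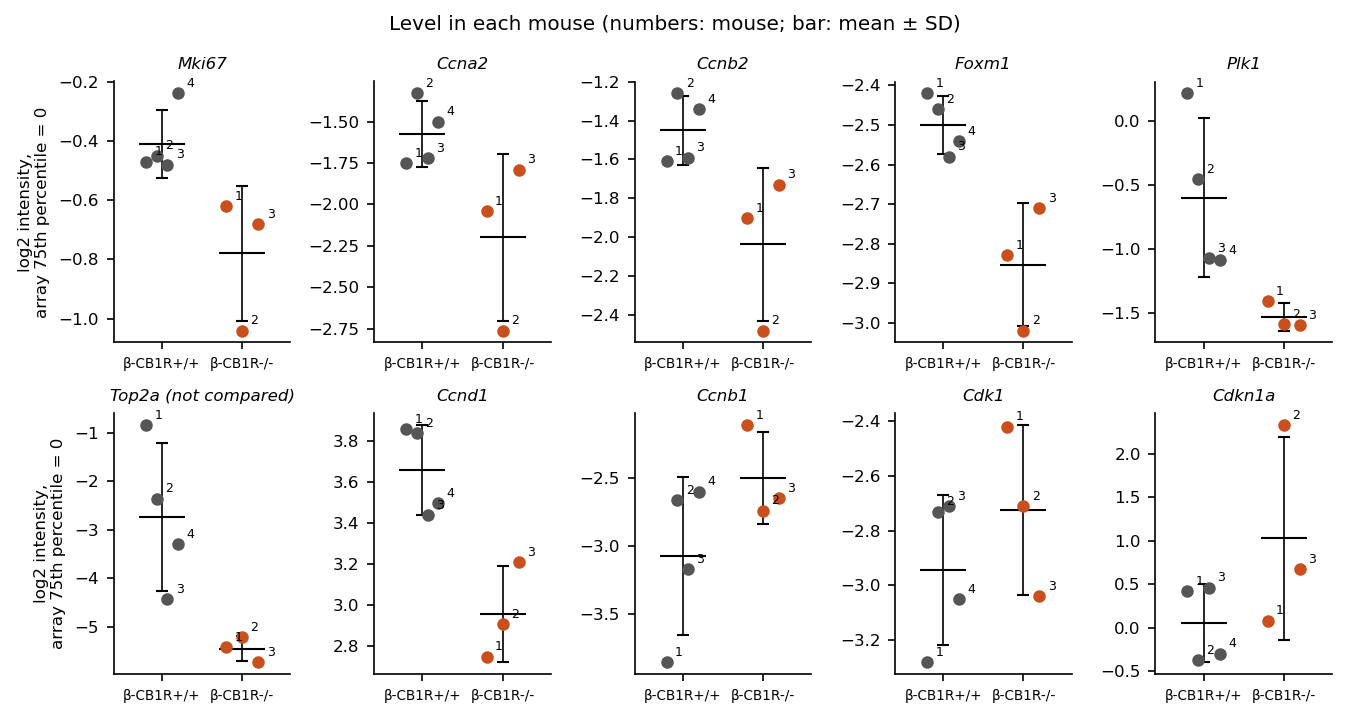
Each panel shows 1 gene, with the log2 level of every mouse as a numbered point (grey β-CB1R+/+, orange β-CB1R-/-; array 75th percentile at 0; each panel has its own vertical scale) and the mean ± SD of the group as a bar. In Mki67, Ccna2, Ccnb2, Foxm1, Plk1 and Ccnd1 all knockouts lie below all controls, Top2a was not well above background in any knockout, in Ccnb1 and Cdk1 the genotypes overlap, and in Cdkn1a 1 knockout, mouse 2, lies far above the rest.

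On its brightest probe, the catalytic partner of the mitotic cyclins did not follow them. Cdk1 was at −3.28, −2.73, −2.71 and −3.05 in β-CB1R+/+ mice and at −2.42, −2.71 and −3.04 in β-CB1R-/- mice (0.22 ± 0.24 SE, 95% interval −0.33 to 0.77), with the genotypes overlapping and 3 of 4 control arrays above background. Ccnb1, the main B cyclin, was at −3.85, −2.66, −3.17 and −2.60 in the controls and at −2.11, −2.74 and −2.65 in the knockouts (0.57 ± 0.34 SE, 95% interval −0.22 to 1.36), again above background on 3 of 4 control arrays. Its other 2 probes differed by 0.34 and 0.72. With normexp background correction Cdk1 differed by 0.02 and Ccnb1 by 0.11. A dimmer Cdk1 probe had a lower mean in the knockouts (−4.70) than in the controls (−3.96), with overlap. It was not compared, being above background on 1 control array and no knockout array. The dimmest Cdk1 probe was above background on no array, so the direction of Cdk1 was not settled. Birc5, survivin, a subunit of the chromosomal passenger complex with Aurora B, was lower on each of its 3 probes (−0.39 ± 0.27, −0.15 ± 0.31 and −0.68 ± 0.33 SE), and the genotypes overlapped on each. Ube2c, the ubiquitin-conjugating enzyme of the anaphase-promoting complex, differed by 0.11 ± 0.59 SE on its brightest probe and by −0.25 ± 0.26 SE on the other, so its direction was not settled.

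The remaining mitotic genes differed little and overlapped. Aurka, the spindle pole kinase, differed by 0.05 ± 0.33 SE, Bub1b, a spindle checkpoint kinase, by 0.18 ± 0.25 SE, and Cenpa, the centromeric histone, by 0.16 ± 0.26 SE. Kif11, the kinesin that pushes spindle poles apart, differed by −0.27 ± 0.42 SE, but it was above background on 1 control array and 2 knockout arrays, and the repeat arrays of β-CB1R-/- mouse 2 read −2.47 and −5.54. As the seventh of 13 values, Kif11 was itself the median of the mitotic group (−0.27), and that median became 0.03 when only the first repeat array was used and −0.35 with only the second. The checkpoint kinase Bub1 read −4.11 to −3.87 in controls and −4.44 to −3.48 in knockouts, and Aurkb, Aurora B, −5.86 to −4.80 and −5.79 to −5.04, all not well above background.

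Of the 10 replication genes, 9 had values below 0 (90%, against 55.7% of all genes), with a median of −0.16, and none separated the genotypes. Pcna, the polymerase clamp, was nearly level, at 2.76, 2.85, 2.84 and 2.85 in β-CB1R+/+ mice and 2.69, 2.56 and 2.90 in β-CB1R-/- mice (−0.11 ± 0.18 SE, 95% interval −0.52 to 0.30). Of the 6 subunits of the MCM helicase, which licenses and unwinds replication origins, all 6 had values below 0, from −0.14 ± 0.27 SE for Mcm2 through −0.16 ± 0.21 SE for Mcm4, −0.16 ± 0.19 SE for Mcm7, −0.32 ± 0.28 SE for Mcm6 and −0.43 ± 0.31 SE for Mcm3 to −0.55 ± 0.44 SE for Mcm5. None of these exceeded the spread between mice.

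β-CB1R-/- mouse 2 set much of this. Mcm3 was at −1.34, −0.67, −1.12 and −0.53 in the controls and at −1.17, −1.92 and −0.95 in the knockouts, so that mouse 2 stood lowest while the other knockouts lay within the controls. That mouse had the lowest value of the 7 for 7 of the 10 replication genes (70%) and for 14 of the 34 members (41.2%), where it was lowest for 21.5% of all genes. E2f1, the factor that turns on replication genes, differed by −0.18 ± 0.36 SE and Mcm2 by −0.14 ± 0.27 SE with all mice, and by 0.11 and 0.09 without mouse 2. Rrm2, the regulated subunit of ribonucleotide reductase, differed by −0.02 ± 0.24 SE. Tyms, thymidylate synthase, was the exception in direction (0.83 ± 0.56 SE), but it was above background on 2 of 4 control arrays and rested on a low value of −4.97 in β-CB1R+/+ mouse 2, the other controls being at −3.23 to −2.54 and the knockouts at −2.98 to −2.18. With normexp background correction it differed by 0.19.

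**Figure D3:**
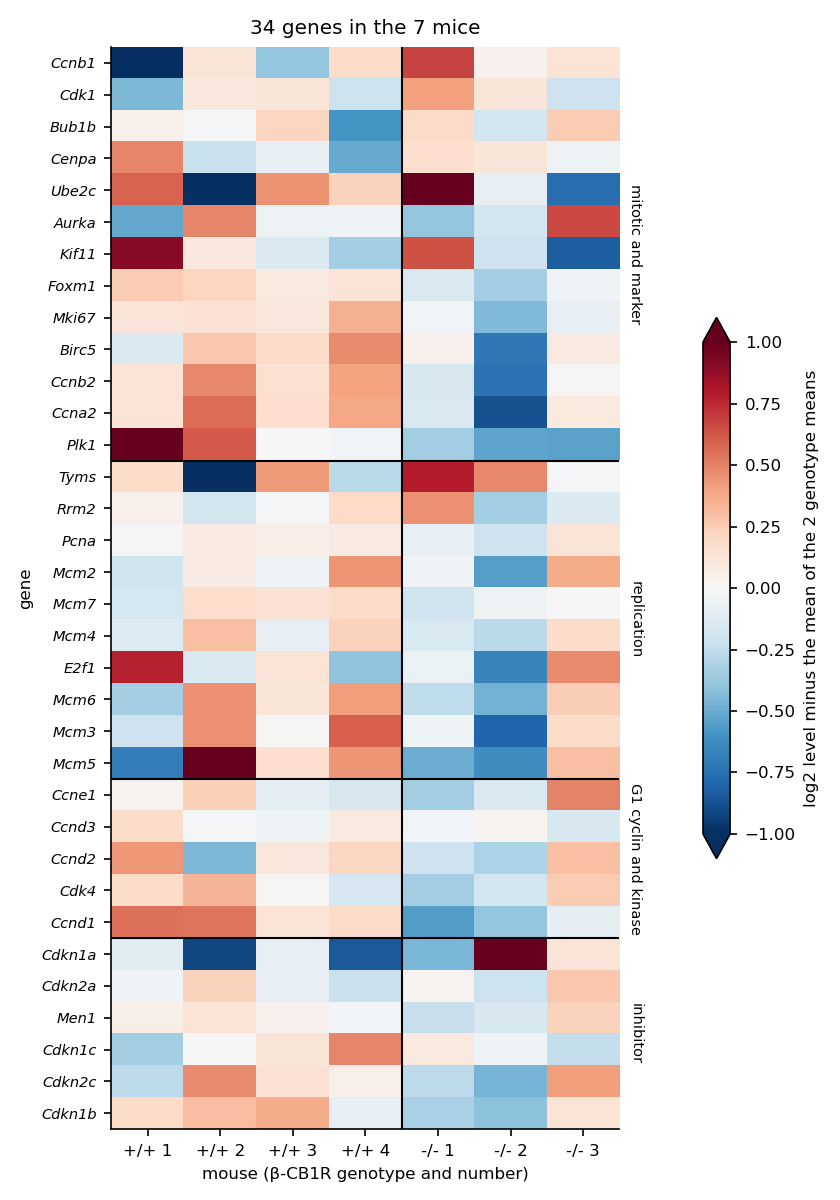
Each row is 1 of the 34 genes compared and each column 1 mouse (+/+ β-CB1R+/+, -/- β-CB1R-/-), coloured by the log2 level minus the mean of the 2 genotype means (red above, blue below; colours stop at 1 either way). β-CB1R-/- mouse 2 is blue over most replication genes and the lower mitotic genes and red for Cdkn1a. β-CB1R-/- mouse 3 is close to the controls over the replication genes but below every control for Mki67, Ccna2, Ccnb2, Foxm1, Plk1 and Ccnd1.

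Among G1 cyclins and kinases, Ccnd1 stood apart. Ccnd1, cyclin D1, the growth-factor-responsive partner of Cdk4 and Cdk6, was at 3.86, 3.84, 3.44 and 3.50 in β-CB1R+/+ mice 1 to 4 and at 2.75, 2.91 and 3.21 in β-CB1R-/- mice 1 to 3. All knockouts lay below all controls, and the difference of −0.71 ± 0.21 SE (1.63-fold lower, 95% interval −1.20 to −0.21) had the smallest unadjusted p of any member, 0.0107 by limma, with an adjusted p of 0.999. It was lowest in β-CB1R-/- mouse 1, and the difference was −0.68 without β-CB1R-/- mouse 2 and −0.71 with normexp background correction.

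The cyclin tied to beta cell expansion in adult mice was not higher. Ccnd2, cyclin D2, was at 5.40, 4.52, 5.08 and 5.18 in β-CB1R+/+ mice and at 4.76, 4.65 and 5.27 in β-CB1R-/- mice, a difference of −0.15 ± 0.27 SE (95% interval −0.78 to 0.47, at most 1.39-fold higher). The genotypes overlapped throughout, and with normexp background correction the sign turned (0.34). Ccnd3, cyclin D3, differed by −0.11 ± 0.17 SE on its brightest probe and by 0.07 ± 0.18 SE on the other. Cdk4, the kinase of the D cyclins in beta cells, was at 4.60, 4.76, 4.43 and 4.25 in the controls and 4.07, 4.23 and 4.67 in the knockouts (−0.19 ± 0.23 SE), and its other 2 probes differed by −0.21 and −0.08.

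Ccne1, cyclin E1, showed no difference to 2 decimals (−0.00 ± 0.25 SE, 95% interval −0.58 to 0.58). Cdk6 read −6.18 to −4.06 in controls and −6.05 to −5.61 in knockouts, and Ccne2, cyclin E2, −6.16 to −5.19 and −6.27 to −5.78, and both were not well above background on any array. Cdk2, the partner of cyclin E, was above background on 2 knockout arrays and no control array, which gives at least 1.10-fold higher in the knockout with no test, and its values overlapped (−4.29 to −3.59 in controls, −3.91 to −3.25 in knockouts).

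Of the 6 inhibitors, none separated the genotypes and the median was −0.12. Cdkn1a, p21, the inhibitor induced by p53 and by stress, was at 0.42, −0.37, 0.46 and −0.30 in β-CB1R+/+ mice and at 0.08, 2.33 and 0.67 in β-CB1R-/- mice. Its difference, 0.98 ± 0.52 SE (unadjusted p = 0.0977 by limma), was the highest of the 34, and it rested on β-CB1R-/- mouse 2, without which it was 0.32. Both repeat arrays of that mouse read 2.33. A dimmer Cdkn1a probe read −2.41 in mouse 2, inside the range of the controls (−3.13 to −2.11). Fos was at 5.84 in that mouse, and at 6.31 and 5.34 in β-CB1R+/+ mice 3 and 4, whose Cdkn1a was 0.46 and −0.30, and its part in the result was not tested.

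Cdkn1b, p27, which keeps resting beta cells out of the cycle, was at 2.99, 3.11, 3.17 and 2.72 in the controls and at 2.48, 2.39 and 2.94 in the knockouts (−0.39 ± 0.22 SE, unadjusted p = 0.11 by limma), with overlap at 1 mouse of each genotype. Men1, menin, a scaffold of the histone methyltransferase complex that maintains p27 and p18 expression, was close to level at 3.55, 3.63, 3.53 and 3.46 against 3.26, 3.33 and 3.72 (−0.10 ± 0.19 SE), and a second probe gave −0.08 ± 0.21 SE. Cdkn2c, p18, differed by −0.21 ± 0.28 SE, Cdkn1c, p57, by −0.13 ± 0.24 SE and Cdkn2a, the p16 and p19Arf locus, by 0.06 ± 0.21 SE. For none of the 6 did the difference exceed the spread between mice at an unadjusted p of 0.05.

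The lactogen response was read on a list of 19 genes that was drawn up with these results known and is not independent evidence of its direction. Of the 19, 5 had values below 0 (55.7% of all genes) and 6 were higher with an adjusted p under 0.05 by limma (0.171% of all genes). These counts support nothing, since 3 of the 6, Gbp8, Tph1 and Lrrc55, were above background on 0, 1 and 2 of 4 control arrays and passed the filter on dim probes through the knockouts. The calls also depended on the mice and the test: of 43 probes past an adjusted p of 0.05 in all, 0 passed with the methods' t-test, with the replicate number as a block or without β-CB1R-/- mouse 2, and 5 passed without β-CB1R-/- mouse 3 or without β-CB1R+/+ mouse 3. Tph1, the enzyme that starts serotonin synthesis and a hallmark of islets in pregnancy, had a log2 level of −5.61 to −3.38 in the controls, mostly at background, and 2.49 to 5.39 in the knockouts. For Lrrc55 these ranges were −3.90 to −2.83 and 0.58 to 1.77. Of genes above background on every array, Matn2 rose by 3.49 ± 0.30 SE, Neb by 2.75 ± 0.35 SE and Ehhadh by 1.45 ± 0.18 SE on the log2 scale. Gbp8, not well above background on any control array, was at least 10.1-fold higher. Prlr, the prolactin receptor, differed by 0.50 ± 0.47 SE and did not pass.

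The lactogen list and the proliferation lists were then set side by side in each mouse. Each gene was centred on its mean over the mice, and the median over each list was taken. The lactogen list was drawn up with these results known, so its split of the genotypes is not independent evidence. Its median was −0.69, −0.62, −0.46 and −0.60 in β-CB1R+/+ mice 1 to 4 and 0.63, 0.87 and 1.20 in β-CB1R-/- mice 1 to 3. For the 13 mitotic genes it was 0.09, 0.17, 0.09 and 0.11 in the controls and 0.01, −0.23 and −0.04 in the knockouts, so that all 3 knockouts lay below the controls. The 33 further mitotic genes overlapped, at −0.13, 0.13, −0.07 and −0.02 in the controls and 0.02, −0.20 and −0.06 in the knockouts. The 40 further replication genes did not, at 0.02, 0.12, 0.06 and 0.10 in the controls and 0.01, −0.18 and −0.07 in the knockouts, where mouse 1 of each genotype differed by the last digit. For the 10 replication genes among the members it was −0.17, 0.12, 0.08 and 0.21 against −0.08, −0.42 and 0.16, for G1 cyclins and kinases 0.18, 0.24, 0.00 and 0.07 against −0.35, −0.20 and 0.24, and for the inhibitors −0.04, 0.18, 0.07 and −0.07 against −0.26, −0.19 and 0.21. β-CB1R-/- mouse 3 was the highest for the lactogen list and also for the inhibitors, level with the highest control for G1 cyclins and kinases, second to β-CB1R+/+ mouse 4 for the replication genes and below every control for the mitotic genes. Mouse 2, second for the lactogen list, had the lowest mitotic and replication medians. Since the lactogen list splits the mice into a cluster of 4 and a cluster of 3, no correlation across mice was computed.

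**Figure D4:**
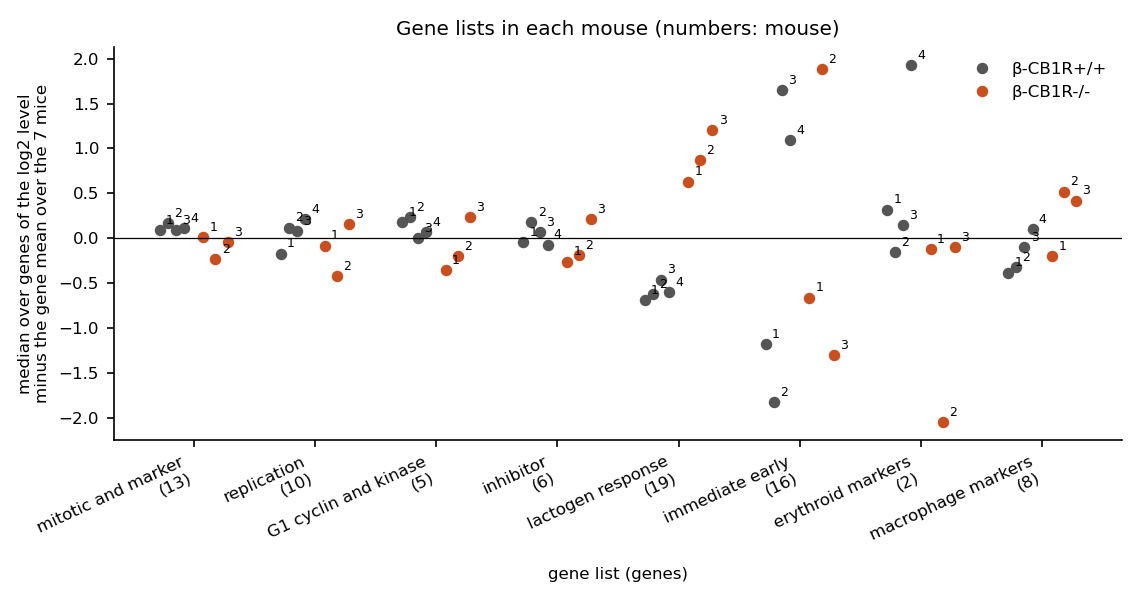
Each point is 1 mouse (number) and gives the median, over the genes of a list, of the log2 level minus the gene's mean over the 7 mice; the number of genes is in brackets. The lactogen list, drawn up with these results known, splits the genotypes, from −0.69 to −0.46 against 0.63 to 1.20. The 4 proliferation lists stay within −0.42 to 0.24 and the erythroid markers run from −2.04 to 1.93.

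Other islet-resident cells also carry proliferation genes, and some of their markers moved with the mice. Of the erythroid markers, Hbb-bs matched no probe and 2 were compared. Hba-a1 (alpha globin) and Alas2 (the first enzyme of erythroid haem synthesis) were lowest in β-CB1R-/- mouse 2, at 3.63 and −2.06, and highest in β-CB1R+/+ mouse 4, at 7.75 and 1.78. Hba-a1 was 5.90 to 6.03 in the other controls and 5.85 and 5.70 in the other knockouts, so that it too separated the genotypes. Of 8 macrophage markers, all 8 had values above 0 in the knockout (median 0.46; brightest Itgam, 0.51 ± 0.26 SE) and none passed. C1qb, a complement subunit made by macrophages and named after its values were seen, was above every control in every knockout, at −0.38 to 0.03 against 0.06 to 0.26. The per-mouse medians of the 8 were −0.38 to 0.10 in controls and −0.20 to 0.52 in knockouts. The 10 beta cell markers had a median of −0.17 and the 5 alpha cell markers −0.59, of which Ttr was lower in every knockout (−0.83 ± 0.24 SE, unadjusted p = 0.00839 by limma). The part of red cell precursors, macrophages and endocrine cell number in the mitotic values was not tested.

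The remaining marker lists overlapped between genotypes in their per-mouse medians, at −0.80 to 0.35 against −0.54 to 0.45 for 11 acinar genes, −1.04 to 0.66 against −0.41 to 0.63 for 6 duct genes, −0.19 to 0.39 against −0.26 to 0.09 for 7 endothelial genes, −0.16 to 0.11 against −0.11 to 0.28 for 5 lymphocyte genes and −0.43 to 0.47 against −0.19 to 0.11 for delta and PP cell genes. For 8 genes of stellate cells and fibroblasts, which can also divide, the medians were −0.96, −1.47, −0.59 and 2.01 in β-CB1R+/+ mice 1 to 4 and 0.26, 0.65 and 0.30 in β-CB1R-/- mice 1 to 3, so that 3 of 4 controls lay below every knockout and mouse 4 above. Of these genes 6 of 8 were above 0 (median 0.73) and none passed, and their part in the proliferation values was not tested. The lymphocyte markers Cd79a and Ms4a1 were not compared.

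Genes of the same processes outside the 40 were then counted from wider lists. Of 33 further mitotic genes compared, 24 were below 0 (median −0.13), 0 passed the adjusted threshold and 1 was past an unadjusted p of 0.05, upward (1.88% of all genes upward and 2.02% downward), a share near that of all genes. That gene was Racgap1, the GTPase-activating subunit of centralspindlin needed for cytokinesis, which was at 0.32, 0.39, 0.61 and 0.57 in β-CB1R+/+ mice and at 1.25, 1.91 and 1.56 in β-CB1R-/- mice (1.10 ± 0.22 SE, limma unadjusted p = 0.000964 and adjusted p = 0.378). All knockouts lay above all controls, and a second Racgap1 probe gave the same picture (1.11 ± 0.29 SE). It was thus opposite in direction to Plk1, Ccna2 and Ccnb2. In 1 of the 33, Ccnf, every knockout lay below every control (−0.48 ± 0.25 SE; named after its values were seen). The shares of all genes that separated in this way were 2.61% upward and 2.22% downward, so that 1 of 33 in each direction is near the background.

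Of 40 further replication genes compared, 28 were below 0 (median −0.18) and 1, Chaf1b, a subunit of the chromatin assembly factor, was past an unadjusted p of 0.05 (−0.73 ± 0.24 SE, limma unadjusted p = 0.0167), though its second probe gave 0.00 ± 0.18 SE. In 3 of the 40 every knockout lay below every control (2.22% of all genes) and in 0 above: Pold1, the catalytic subunit of DNA polymerase delta, at −0.41 ± 0.19 SE, and the clamp loader subunits Rfc2 and Rfc5, at −0.17 ± 0.17 SE and −0.25 ± 0.18 SE, all named after their values were seen. β-CB1R-/- mouse 2 was the lowest mouse for 16 of these 40 (40%) and for 14 of the 34 members (41.2%). Of the 33 further mitotic genes it was lowest for 7 (21.2%), next to 21.5% of all genes compared, and β-CB1R+/+ mouse 1 was lowest for 9. Neither the 16 further G1 genes (median −0.09) nor the 21 further brakes of the cycle (median −0.11) held a gene past an unadjusted p of 0.05, and the same was true of the 16 immediate early genes (median −0.16). Growth signalling genes were mostly above 0, 15 of 21 with a median of 0.15 (28.6% below 0, against 55.7% of all genes). Akt1, the kinase that relays insulin and growth factor signals, was at most 4.87 in the controls and above that in every knockout, up to 5.30 (0.44 ± 0.18 SE, limma unadjusted p = 0.043, adjusted p = 0.999). Nfatc3, a calcium-regulated transcription factor of the same list, was below every control in every knockout (−0.44 ± 0.19 SE, limma unadjusted p = 0.0502) and was named after its values were seen. Of the 21, 1 separated upward and 1 downward, where 2.61% and 2.22% of all genes did, so that these counts are near the background.

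**Figure D5:**
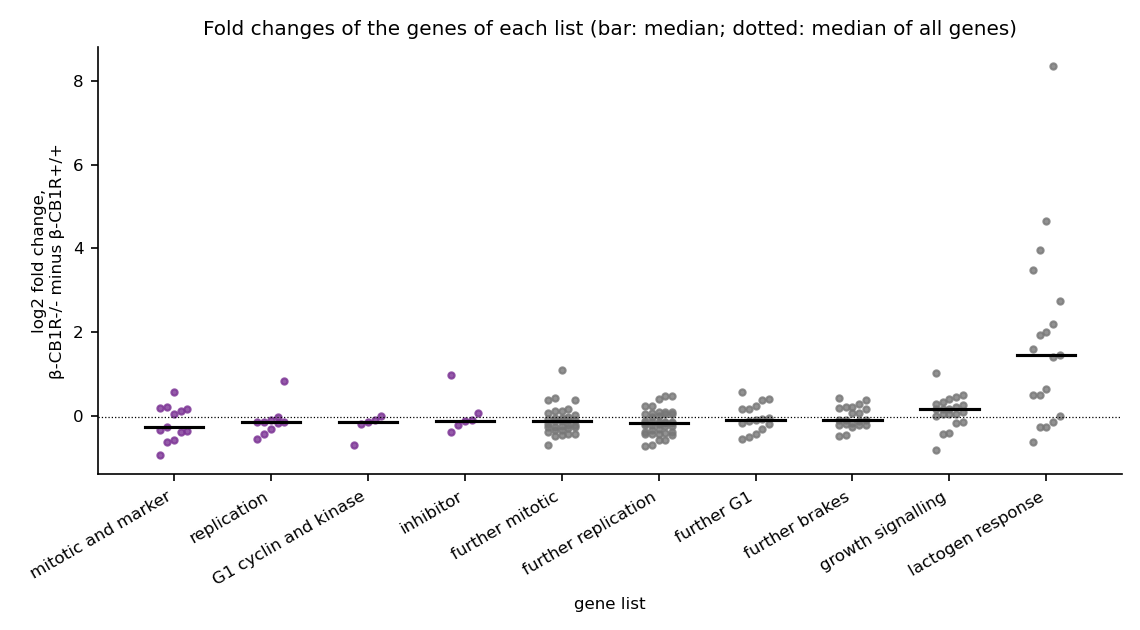
Each point is the log2 fold change, β-CB1R-/- minus β-CB1R+/+, of 1 gene on its brightest probe, arranged by list (purple, the members by role; grey, the wider lists); bars are medians and the dotted line is the median of all genes, −0.04. The proliferation lists have medians from −0.27 to −0.09 with Racgap1 (1.10) as the highest point. The lactogen list, drawn up with these results known, has a median of 1.45. It reaches 8.35 at Tph1, which was above background on 1 of 4 control arrays.

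The intervals set what these arrays could have missed. The upper 95% limit of the fold, knockout over control, was lowest for the 6 genes named above for lying lower in every knockout, by that choice, at 0.862 for Ccnd1 to 1.05 for Mki67. For Pcna, Mcm7, Mcm6 and Mcm3 it was 1.23, 1.21, 1.24 and 1.22, and for Cdk4 1.26. Other members reached 1.45 for Rrm2, 1.57 for E2f1, 1.62 for Kif11, 1.68 for Cenpa, 1.69 for Bub1b, 1.70 for Cdk1 and 1.76 for Aurka. It was wider for Ccnb1 (2.57), Ube2c (2.80), Tyms (4.37) and Cdkn1a (4.52), so that these intervals include a doubling. A rise in a small share of cells would appear diluted in whole-islet RNA, and its size per cell was not measured.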

How the data were processed

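Islet RNA was labelled with Cy3 and hybridised to Agilent single-colour arrays. The authors deposited scanner files whose processed signals are intensity values from Feature Extraction 11.5.1.1, background-subtracted and not normalised between arrays, and a series table of Z scores, a score per probe checked here to match the standardised log signals within 0.00503. The array annotation names build mm9, so no array coordinates are given. Control and outlier-flagged spots were left out, log2 of the processed intensity the authors deposited was centred on each array's 75th percentile, spots were averaged per probe, and the 2 arrays of β-CB1R-/- mouse 2 were averaged. Probes well above background in at least 3 mice (39165 of 55681) were compared with limma 3.58.1 in R 4.3.3 (lmFit and eBayes, two-sided, Benjamini-Hochberg over all probes compared), tested on simulated data. Exact permutation tests used all 35 splits. Symbols came from RefSeq accessions, which named 28026 probes; the brightest probe, by its mean over the 7 mice, stood for a gene. A level bound is the bright group's mean over, per array, the higher of the lowest signal above background and the dim probe's own.

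The members, roles, wider lists and tests were chosen with earlier results of these data known. Named were all 40 members, genes of the wider lists past an adjusted p of 0.05 or otherwise up to 3 with the smallest unadjusted p under 0.05, Cnr1, Fos, up to 5 lactogen genes, and the brightest gene or genes at background of some marker lists. No gene of the duct, endothelial or stellate and fibroblast lists was named, nor the brightest lymphocyte gene. Alas2, Ttr, Prlr and the islet hormones beside them were added after their values were seen. Some marker genes at background are not reported here. The methods state Student's t test or ANOVA for comparisons within experiments and refer to earlier work for the array analysis. Student's t test was run here as the methods' t-test among the alternatives. The number of arrays limits the precision. P-values measure the spread between these mice.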

Additional observations from a re-analysis of the deposited data

Results flagged for a closer look

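In the 4 β-CB1R+/+ mice, 1 mouse lay far from the other 3 for 4 of the 34 genes compared (the gap to the nearest mouse over the whole range was above Dixon's 95% value for 4 samples), where chance gives about 1 in 20, or 1.7 of 34. Mki67 was high in β-CB1R+/+ mouse 4, at −0.24 against −0.48 to −0.45. Ube2c was low in β-CB1R+/+ mouse 2, at −3.08 against −1.34 to −0.98. Mcm7 and Pcna were low in β-CB1R+/+ mouse 1, at 1.06 against 1.38 to 1.42 and at 2.76 against 2.84 to 2.85. The group of 3 knockouts is too small for this check.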

How the results depend on the processing

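Under 18 alternatives no member passed an adjusted p of 0.05 (smallest 0.503), 564 of 587 values of the members with a direction kept it, and 71 of 72 medians of the role groups stayed below 0. The 4 members at an unadjusted p under 0.05 became 2 with the deposited Z scores, normexp background, quantile normalisation or the replicate block, and 1 to 4 when 1 mouse was left out (1 without β-CB1R-/- mouse 2 or without β-CB1R+/+ mouse 2, 2 without β-CB1R+/+ mouse 3 or 4). They became 3 with limma's trend over intensity or with no filter on dim probes. With the mean of all probes of a gene they became 5, with Foxm1 added. The methods' t-test also gave 4, but not the same genes: Mki67, Foxm1, Ccnb2 and Ccnd1, and no longer Ccna2 and Plk1. After Benjamini-Hochberg it left 0 probes in all (1412 at an unadjusted p under 0.05). The mitotic median (−0.27) was −0.38 where every array had to be above background, −0.07 with the Z scores (in Z units), −0.17 with no filter, −0.05 with normexp, 0.03 and −0.35 with either repeat array alone, and −0.36 to −0.11 with 1 mouse left out (−0.13 without β-CB1R-/- mouse 2, −0.11 without β-CB1R+/+ mouse 1); the cause was not tested beyond Kif11 being the median gene.

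Sign turned for Ube2c (−0.07 as the mean of its probes, −0.06 with the second repeat array), Kif11 (0.25 with the first), Aurka, Cenpa and Ccnd2 under normexp (−0.04, −0.05 and 0.34), and Rrm2, Cdkn1c and Cdkn2a under the replicate block (0.05, 0.01 and −0.01). With 1 mouse left out, values that turned ranged over −0.37 to 0.52 for Ube2c, −0.26 to 0.27 for Aurka, −0.65 to 0.08 for Kif11, −0.46 to 0.11 for E2f1, −0.37 to 0.09 for Mcm2, −0.25 to 0.15 for Rrm2, −0.27 to 0.01 for Cdkn1c and −0.06 to 0.18 for Cdkn2a. In all, 10 members turned under some alternative and 23 under none. Ccne1, at −0.00 to 2 decimals, was counted as having no direction. It was at 0.06 and −0.07 with the first and second repeat array alone and ran from −0.25 to 0.18 with 1 mouse left out.

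Whether equal replicate numbers pair mice was not settled. Deviations of same-numbered mice correlated at 0.4218, −0.2727 and −0.0617 over probes, and so few values of mixed sign cannot decide it. The replicate block left 0 probes past an adjusted p of 0.05 (43 without it; 1714 and 1406 at an unadjusted p under 0.05). Without β-CB1R-/- mouse 2, 0 probes passed, and 785 at an unadjusted p under 0.05. Normexp used median spot signals. Dim genes are limited by signal over background: Top2a, Cdk2, Bub1, Aurkb, Ccne2 and Cdk6 could not be compared, and Kif11, Bub1b and Tyms were measured on some arrays of a group.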
